A study of Mus musculus with 14 samples.

Results

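The genes described here rose during reprogramming of mouse fibroblasts and kept that rise in cells that also carried Cdk9-DN. A level is the group mean of log2(FPKM + 1), where FPKM is the number of fragments scaled by exon length and by all mapped fragments, taken over the libraries that list the gene. A gene was kept when its level rose by at least 1.5 from day 4 to day 10 with the control vector, rose with Cdk9-DN by at least 0.9 times as much, and its control mean at day 10 was at least 5 FPKM. Symbols of several large families and of unnamed gene models were dropped, together with Trh, Npy, Epcam, Nanog and Bst2. The rule left 65 genes of the 26962 listed in any library. Of these, 32 were protein-coding and 33 were short RNA genes with a locus of at most 200 bases. All 65 passed the filter of 1 FPKM in at least 2 libraries, which their choice on day 10 values makes likely. The genes were selected on the values of days 4 and 10, so those values are given as a description. Tests compare groups of days 3 and 5 only. The spread behind them was estimated with the libraries of days 4 and 10 as well.

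The cells were mouse embryonic fibroblasts of the strain OG2/129SV that received Oct4, Sox2, Klf4 and c-Myc, in all groups, with either a control vector or Cdk9-DN, a Cdk9 construct whose name marks it as dominant-negative. They were kept in medium for embryonic stem cells with serum and LIF. RNA sequencing covered 14 libraries in 8 groups: 1 library per vector at day 3 after infection, and 2 per vector at days 4, 5 and 10. The labels do not say that the replicates were separate cultures, so the spread behind each p-value is that of these libraries and may be technical. In such bulk samples, more cells that express a gene and more RNA per cell cannot be told apart.

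Cdk9 is the kinase of P-TEFb. It phosphorylates the tail of RNA polymerase II and the factors that hold the enzyme near the start site, and so lets paused polymerase elongate. Reprogramming of fibroblasts passes through a loss of mesenchymal genes and a gain of epithelial genes before the pluripotency genes come on. The small nuclear RNAs, which recur among the short RNA genes here, are made by dedicated promoters and form the core of the spliceosome: U1 pairs with the 5′ splice site and U2 with the branch point.

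Depth derived from the deposited bounds was 8.79 to 13.0 M fragments per library. Cdk9 itself was not analysed here, so the vector labels were not checked against it. Sox2, one of the delivered factors, lay between 258 and 501 FPKM in the libraries that list it, and Thy1, a fibroblast surface marker, was at 83.6 and 81.9 FPKM in the control libraries of day 4 and at 16.3 FPKM in the 1 control library of day 10 that lists it. With Cdk9-DN Thy1 was at 73.3 FPKM in 1 library of day 4 and at 18.0 and 16.8 at day 10. At day 10 the summed FPKM of the 3 epithelial markers listed in all 14 libraries was 270 and 262 with the control vector and 65.2 and 58.5 with Cdk9-DN. For the 5 pluripotency markers the sums were 54.0 and 46.1 against 20.1 and 19.6, and for the 9 macrophage and blood cell markers they were 1.37 and 0.404 against 0.255 and 0.459. The 2 fibroblast markers listed everywhere summed to 3.85 and 4.42 against 13.3 and 14.98, the 3 neural markers to 2.64 and 2.48 against 13.3 and 13.5, and the 2 endothelial markers to 3.81 and 3.68 against 0.957 and 0.974. All of these sums moved with the vector at day 10 except those of the blood cell markers, which overlapped, and their part in the members' values was not tested.

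Keeping the rise was the less common outcome. Of the genes whose symbols were kept, 309 met the rise and the FPKM limit and had values with Cdk9-DN, and the 65 members are 21.04% of them. The median ratio of the Cdk9-DN rise to the control rise over the 309 genes was 0.629. Among protein-coding risers 32 of 155 were kept, and among short RNA risers 33 of 132. The protein-coding members rose by 1.51 to 4.86 with the control vector (median 2.69) and by 1.51 to 5.01 with Cdk9-DN (median 3.04). Their ratio of rises lay between 0.9 and 1.1 in 22 genes, between 1.1 and 1.5 in 8, and above that in Shisa3 (1.99) and Klk1b5 (1.89).

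**Figure D1:**
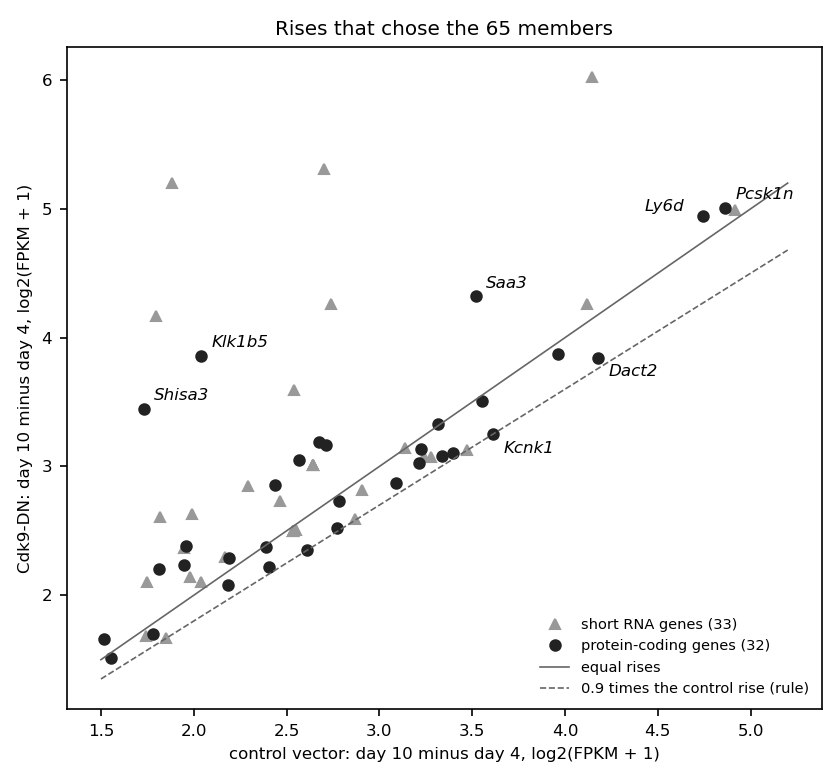
Rise from day 4 to day 10 on the log2(FPKM + 1) scale with the control vector (horizontal) and with Cdk9-DN (vertical) for the 32 protein-coding members (circles) and 33 short RNA members (triangles). The solid line marks equal rises and the dashed line the limit of 0.9 that the rule set. Protein-coding members lie close to the solid line except Shisa3 and Klk1b5, while several short RNA genes lie far above it.

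The choice depended on single libraries. The rule was tried without each of its libraries and with other pseudocounts and scalings. In all of these, 9 of the 32 protein-coding members and 2 of the 33 short RNA members still met it. A member that only 1 library of a group lists cannot meet the rule without that library. All libraries of the rule listed 13 of the 32 protein-coding members and 32 of the 33 short RNA members. Elmo1 (rise 1.51) and Dtx3l (1.55) were the nearest inside the limit on the rise, and Hs3st3b1 (1.49) and Tmem176a (1.45) the nearest outside. By the ratio, Kcnk1 and a U1 copy, at 0.9001 and 0.90096, were just inside, and Frem2 with 0.8998 and another U1 copy with 0.896 were just outside. The FPKM limit was met most narrowly by Gjb1 (5.39) and a U1 copy (5.71), and missed most narrowly by Tagln3 (4.85) and Klk1b21 (4.56).

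Signalling and membrane proteins made up 7 of the 32 protein-coding members. Ramp3 encodes an accessory protein that directs calcitonin-family receptors to respond to adrenomedullin and amylin. It was at 11.7 FPKM with the control vector and 13.5 with Cdk9-DN at day 3, at 16.1 and 17.9 against 12.7 and 12.3 at day 4, at 27.8 and 28.4 against 19.5 and 20.7 at day 5, and at 119 and 116 against 121 and 119 at day 10. The Cdk9-DN libraries were the lower ones at days 4 and 5, and by day 10 the groups differed by only a few FPKM. Nt5e, the ecto-enzyme CD73 that makes adenosine from AMP, was at 1.20 and 0.95 FPKM at day 3 and rose in steps. It reached 11.08 and 10.03 FPKM at day 5 with the control vector and 7.06 and 6.65 with Cdk9-DN, and 24.3 and 27.6 against 28.9 in 1 library at day 10.

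Shisa3 and Dact2 encode modulators of Wnt signalling: Shisa proteins retain Wnt and FGF receptors inside the cell, and Dact proteins bind Dishevelled. Shisa3 had 2.99 and 3.24 FPKM at day 4, 7.01 and 7.53 at day 5, and 12.9 and 12.4 at day 10 with the control vector. With Cdk9-DN it had 2.06 and 2.03, then 5.30 in the 1 library that lists it, then 32.8 and 31.7 FPKM. Its order of vectors thus turned between days 5 and 10, and its Cdk9-DN mean was 2.55 times the control mean at day 10. Dact2 went from 0.55 and 0.73 FPKM at day 4 to 28.1 and 29.2 at day 10 with the control vector, and from 0.37 and 0.46 to 20.6 and 18.1 with Cdk9-DN. It was below the control libraries on all of these days, although its rise of 3.85 was 0.921 times the control rise of 4.18.

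Tmem88, another Wnt inhibitor that binds Dishevelled, the potassium channel gene Kcnk1 and the gap junction gene Gjb1 appeared late. Tmem88 was listed at 0 in all 10 libraries of days 3 to 5, and at 7.37 and 7.69 FPKM with the control vector and 6.69 and 5.99 with Cdk9-DN at day 10. Kcnk1 stayed between 0.18 and 0.53 FPKM until day 5 and then reached 14.7 and 15.3 against 11.18 and 11.03. Gjb1 was at or under 0.23 FPKM until day 5, and at 5.58 and 5.19 FPKM against 8.12 in the 1 Cdk9-DN library that lists it.

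Among the 3 transcription regulators, Cited1 showed the most unequal course. By the deposited bounds its control values of day 10 implied 28.0 fragments, the fewest of the 32 protein-coding members. Their median was 246. Cited1 is a co-activator that binds CBP and p300 and has no DNA-binding domain of its own. With the control vector it went from 2.60 and 3.87 FPKM at day 4 to 12.1 and 14.4 at day 5, and stood at 13.4 and 17.3 at day 10. With Cdk9-DN it was at 2.03 and 5.62, then 3.34 and 3.94, then 22.3 in the 1 library that lists it. The control libraries were high at day 5 and the Cdk9-DN libraries were not, and by day 10 the single Cdk9-DN value was above both control values. Tfap2a, the transcription factor AP-2 alpha of surface ectoderm and neural crest, was at 1.03 to 2.04 FPKM in the 8 libraries of days 3 to 5 that list it, and at 11.2 and 10.5 FPKM in 1 library per vector at day 10. Vax2, a homeobox gene of the ventral eye, reached 16.6 and 15.6 FPKM with the control vector and 10.48 and 10.98 with Cdk9-DN.

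Genes of innate immunity and of epithelial barriers supplied 7 members. Ly6d, a membrane-anchored protein of squamous epithelium and early B cells, had the steepest rise but one of the protein-coding members. It was between 0.21 and 0.87 FPKM in every library of days 3 to 5 and at 40.8, 41.7, 46.3 and 43.0 FPKM at day 10, the last 2 with Cdk9-DN. Serpinb3a, a serine and cysteine protease inhibitor of squamous epithelium with close paralogues, was listed at 0 in every library until day 5 and at 9.29, 8.63, 9.66 and 8.45 FPKM at day 10 in the same order. In Serpinb3a the vectors overlapped, and in Ly6d both Cdk9-DN libraries were slightly higher. Oas1a makes the 2-5A that switches on RNase L and is induced by interferon. It was at 0.14 to 0.32 FPKM at day 4, at 1.08 in the 1 listing control library and 0.18 and 0.22 with Cdk9-DN at day 5, and at 11.6 and 9.67 in 1 library per vector at day 10.

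The others of this group were Saa3, an acute-phase protein; Pglyrp1, which binds bacterial peptidoglycan; Pycard, the adaptor of inflammasomes; and Dtx3l, an E3 ubiquitin ligase that partners PARP9. At day 10 Saa3 was at 15.7 FPKM in 1 control library and at 25.2 and 27.7 with Cdk9-DN. Pglyrp1 was at 16.5 against 10.1 and 15.1, Pycard at 9.53 and 8.29 against 7.18 and 7.14, and Dtx3l at 7.997 and 7.332 against 6.43 and 6.45 FPKM. From the list of 42 interferon and antigen presentation genes, 11 passed the filter and Oas1a was the 1 member. At day 5, 0 of the 7 tested genes of that list were called between vectors by limma at an adjusted p under 0.05, with a median of -0.23 against -0.02 for all genes.

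Detoxification enzymes gave the most abundant protein-coding member. Gsta4, a glutathione S-transferase that conjugates the lipid peroxidation product 4-hydroxynonenal, was already at 98.6 and 100.5 FPKM at day 4 with the control vector and 94.5 and 93.9 with Cdk9-DN. At day 10 it was at 475 and 443 against 459 and 471 FPKM, with overlapping vectors. Gpx2, a glutathione peroxidase of epithelia, went from 0 in all 4 libraries of day 4 to 8.78, 7.95, 8.02 and 7.61 FPKM, also overlapping. Abp1, the diamine oxidase that degrades histamine, reached 6.01 and 5.63 FPKM in 1 library per vector, and Ces2g, a carboxylesterase, 6.06 and 7.44 against 10.7 FPKM.

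Proteases and a protease inhibitor made a group of 4. Pcsk1n encodes proSAAS, an inhibitor of prohormone convertase 1 in neuroendocrine cells, and had the largest control rise of the protein-coding members. Its control libraries stood at 4.06 FPKM at day 3, 4.76 at day 4, 14.8 and 15.1 at day 5, and 170 and 163 at day 10. The Cdk9-DN libraries stood at 0.46, at 1.53 and 2.74, at 4.09 and 6.52, and at 101 and 94.9 FPKM. Pcsk1n was therefore lower with Cdk9-DN on every day, by 0.91 at day 4 and 0.76 at day 10 on the log2 scale, while its ratio of rises was 1.03. Ctsf, a lysosomal cysteine protease, reached 65.3 against 69.7 FPKM in 1 library each. The kallikrein genes Klk1b3 and Klk1b5 belong to a cluster of near-identical copies whose reads may have been split, so their values are uncertain. Klk1b5 was listed at 0 in 1 control library of day 10 and at 16.9 FPKM in the other, so its ratio of 1.89 rests on that library.

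The last 7 protein-coding members act in the cytoskeleton, in trafficking or in other roles. Bex4, a brain-expressed X-linked gene, went from 4.18 and 4.26 FPKM at day 4 to 66.3 and 54.8 at day 10 with the control vector, and from 3.28 and 3.12 to 46.7 in 1 library with Cdk9-DN. Tuba4a, an alpha-tubulin, was at 21.7 and 23.6 FPKM at day 3, at 8.31 to 11.3 at days 4 and 5, and at 41.0 and 41.6 against 36.7 and 30.8 at day 10. Capsl, a calcium-binding calcyphosine relative, was at 0 or 0.09 FPKM in all libraries until day 5 and at 13.97 and 15.21 against 12.0004 and 15.5 FPKM at day 10. Reep1, which shapes the endoplasmic reticulum, reached 27.2 and 28.3 against 18.2 FPKM. Fam116a, now called Dennd6a and an activator of Rab14, was listed at 0 at day 4 in all 4 libraries, at 5.76, 5.69 and 5.67 FPKM in the 3 listing libraries of day 5, and at 7.998, 8.596 and 7.16 at day 10. An exact 0 in such tables can be a failed estimate, so for Fam116a and the other members at 0 only the listed value is meant. Elmo1, which activates Rac with Dock proteins, and Fam49a, which binds Rac1, ended at 6.49 to 7.205 and 7.96 to 10.4 FPKM.

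**Figure D2:**
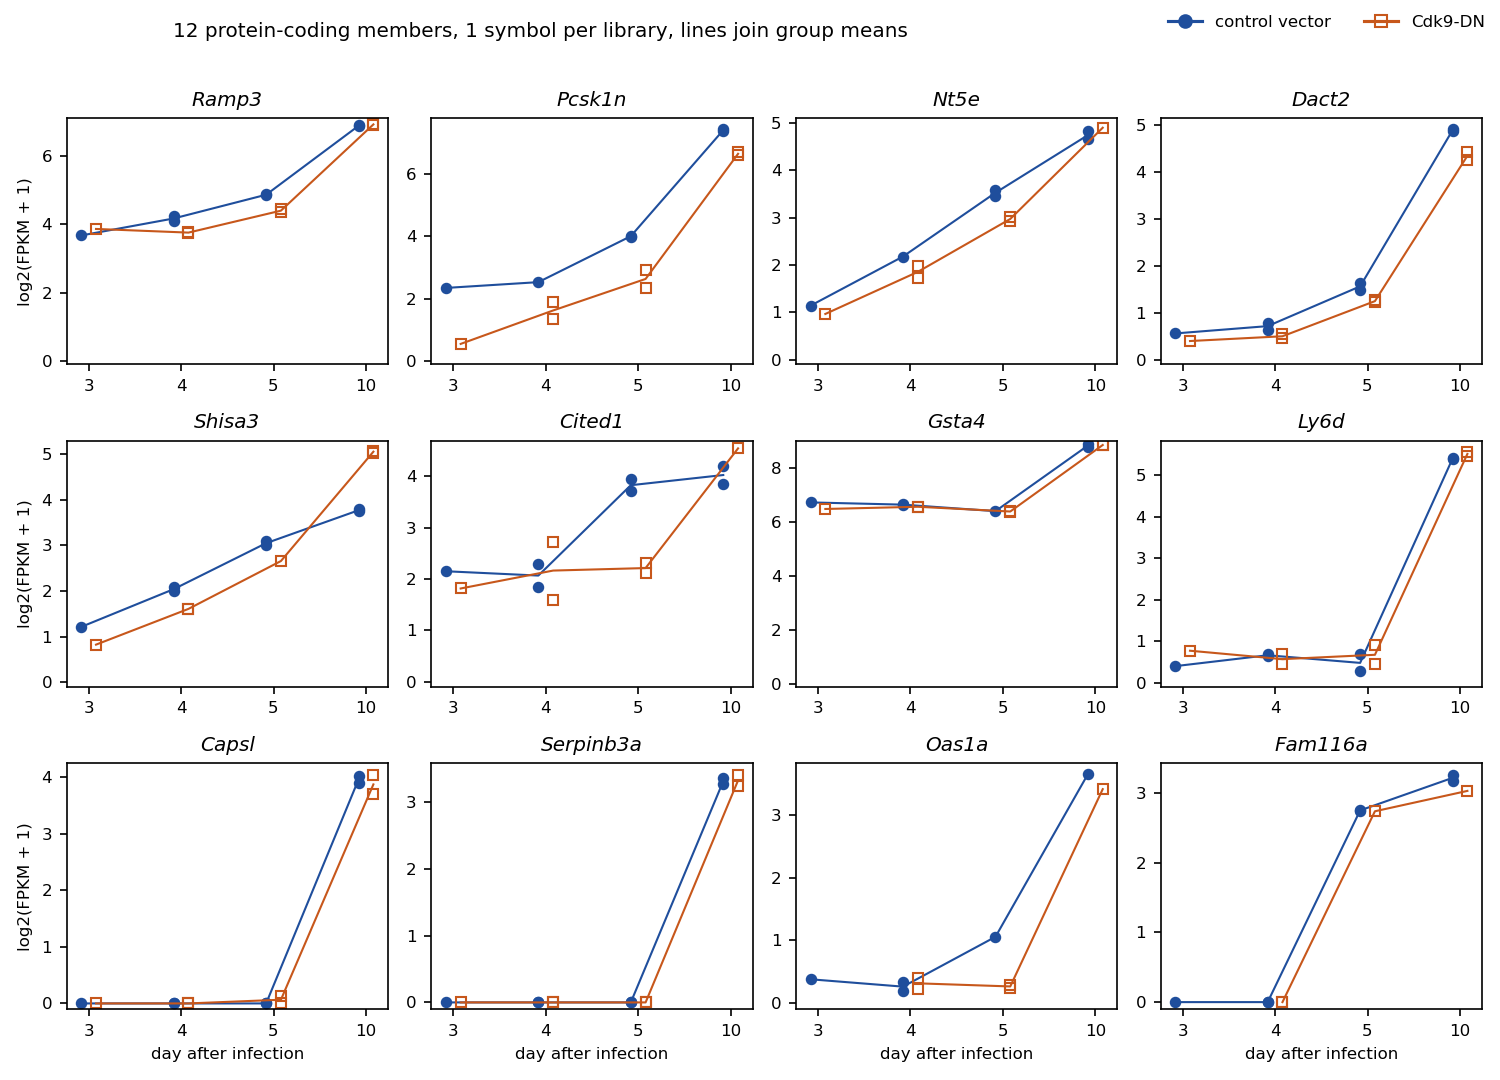
Level of 12 protein-coding members by day after infection, on the log2(FPKM + 1) scale with days spaced evenly. Each symbol is 1 library that lists the gene (filled, control vector; open, Cdk9-DN) and lines join the group means. Ramp3, Pcsk1n, Nt5e and Shisa3 climbed from day 3 or 4, Ly6d, Capsl and Serpinb3a appeared after day 5, and at day 5 the control values of Cited1 and Oas1a (1 library for the latter) lie above the Cdk9-DN values, without a call after adjustment.

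A matched rise was not the same as a matched level. At day 10 all 4 libraries listed 17 of the protein-coding members, and both Cdk9-DN libraries were below both control libraries in 9 of them (Pcsk1n, Tuba4a, Dact2, Vax2, Kcnk1, Pycard, Dtx3l, Tmem88 and Klk1b3). Both were above in 4 (Ramp3, Ly6d, Shisa3 and Fam49a), and the vectors overlapped in Gsta4, Capsl, Serpinb3a and Gpx2. Over all genes with 4 libraries at day 10, the shares were 30.2% below and 30.3% above. These values share libraries with the rule, so no test is given. The fold of the day 10 means, Cdk9-DN over control, ran from 0.589 in Pcsk1n to 2.55 in Shisa3 with a median of 0.939. At day 4 the Cdk9-DN libraries were below the control libraries in 9 of 26 members and above in 0, against 18.7% and 14.3% of all genes.

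The libraries of day 5 took no part in the choice and allowed a test between vectors. The rule still favoured genes with a low Cdk9-DN level at day 4, and a difference present at day 4 may last to day 5. The members' counts at day 5 are therefore not free of the choice, and how far it tilts them was not tested. The spread behind that test came from the libraries of days 4, 5 and 10. Both Cdk9-DN libraries lay below both control libraries in 9 of the 24 members that all 4 libraries list (23.5% of all such genes) and above in 4 (14.2%). Limma called 10 of 5902 genes (0.169%) at an adjusted p under 0.05. With Cdk9-DN 4 were higher (0.0678%) and 6 lower (0.102%). Ramp3 was the 1 member among them: its values of 19.5 and 20.7 FPKM against 27.8 and 28.4 gave a log2 difference of -0.47 (SE 0.0551, adjusted p = 0.0374). The call held in 5 of 14 alternatives, over which the adjusted p ran from 0.0320 to 0.275, and was lost without either control or either Cdk9-DN library of day 5. At an unadjusted p under 0.05, 5.24% of the genes tested, of all classes, were lower with Cdk9-DN and 3.15% were higher. The shares over protein-coding genes alone were not counted. Of the 32 protein-coding members, 11 were lower and 0 were higher. After Ramp3 these were Pcsk1n, Dtx3l, Reep1, Shisa3, Oas1a, Nt5e, Bex4, Cited1, Dact2 and Fam49a, whose adjusted p lay between 0.214 and 0.545, so none of these 10 passed the adjustment.

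The sizes differed among those genes. Cited1 had the lowest value, with a log2 difference of -1.61 (SE 0.373), followed by Pcsk1n at -1.37 (SE 0.233) and Oas1a at -0.79 (SE 0.136), the last from 1 control library. Reep1, Nt5e, Bex4, Dtx3l, Shisa3, Dact2 and Fam49a lay between -0.58 and -0.26. Over the 32 genes the median was -0.08, beside -0.02 for all genes tested. Genes that were still near 0 at day 5, such as Serpinb3a, Tmem88 and Capsl, could show no difference between vectors at that level.

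**Figure D3:**
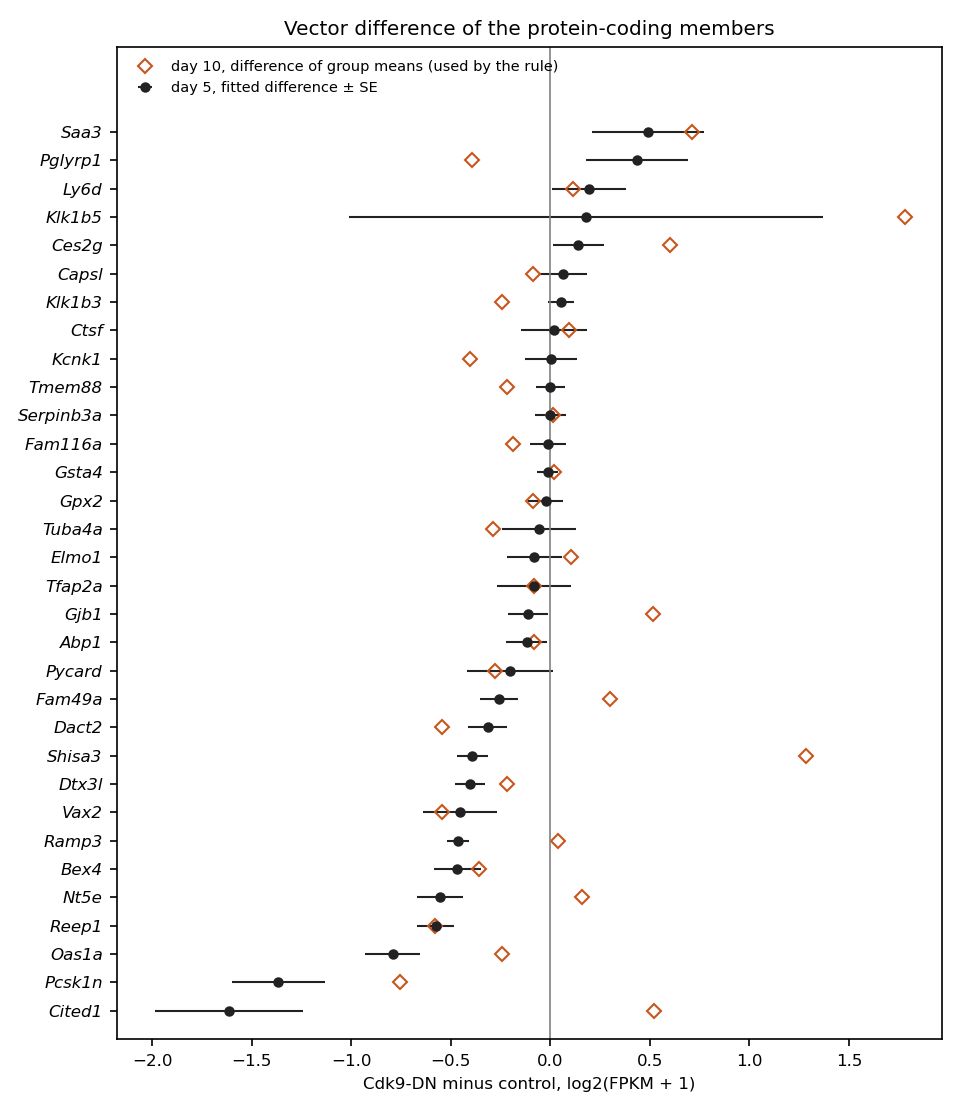
Cdk9-DN minus control on the log2(FPKM + 1) scale for each of the 32 protein-coding members. Filled circles with bars give the fitted difference at day 5 with its SE, and open diamonds the difference of group means at day 10, which shares its libraries with the rule. Cited1 and Pcsk1n lie farthest below 0 at day 5. Several members lie below 0 at day 5 and above 0 at day 10, among them Shisa3, Cited1, Gjb1, Fam49a, Nt5e, Elmo1, Ramp3 and Gsta4. Others, such as Pglyrp1, lie above 0 at day 5 and below 0 at day 10.

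Day 5 was also compared with day 3, within each vector. Each day 3 group is 1 library, assumed to vary like the replicated groups, so these calls have no replicate check at day 3. With the control vector, limma called 602 of 5536 genes higher (10.9%) and 593 lower (10.7%), together 21.6%, and 13.6% of protein-coding genes higher. Of the 32 protein-coding members, 10 rose: Ramp3, Shisa3, Fam116a, Dtx3l, Nt5e, Dact2, Reep1, Bex4, Pcsk1n and Cited1. Gsta4 and Tuba4a fell, and the median over the members was 0.37, beside 0.01 for all genes. With Cdk9-DN it called 620 of 5478 genes higher (11.3%) and 665 lower (12.1%), together 23.5%, and 13.4% of protein-coding genes higher. Of the 30 members tested, 9 rose, Tuba4a fell, and the median was 0.27.

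The 2 sets of early risers overlapped in 8 genes: Bex4, Dact2, Dtx3l, Nt5e, Pcsk1n, Ramp3, Reep1 and Shisa3. They are 80.0% of the control set and 88.9% of the Cdk9-DN set. Fam116a and Oas1a had no value with Cdk9-DN at day 3 and were not tested there, so Fam116a of the control set could not be shared. After quantile normalization Dtx3l and Reep1 lost their Cdk9-DN calls (limma, adjusted p = 0.0519 and 0.0561). The groups compared share no library, but both fits took each gene's spread from the same 14 libraries. The 2 sets of calls are thus not independent. Over all genes, 407 were called higher with both vectors, 67.6% of the control set and 65.6% of the Cdk9-DN set, and over protein-coding genes 219, which is 66.4% and 69.3%. Nt5e rose by 2.39 (SE 0.146, adjusted p = 8.14e-04) on the log2 scale with the control vector and by 2.01 (SE 0.147, adjusted p = 0.00120) with Cdk9-DN. Shisa3 rose by 1.84 (SE 0.0807, adjusted p = 1.43e-04) and 1.83 (SE 0.0940, adjusted p = 2.44e-04), and Pcsk1n by 1.66 and 2.08. Ramp3 rose by 1.19 (SE 0.0682) and 0.54 (SE 0.0682). Fam116a was listed at 0 in the control library of day 3, so its call rests on that 0. Cited1 and Pycard, called with 1 vector each, and Tuba4a with the control vector lost their calls without either day 5 library of that vector, and the difference between vectors in these changes was not tested.

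The other end of the time scale held 13 members whose mean was under 1 FPKM at day 5 with both vectors: Ly6d, Pglyrp1, Kcnk1, Capsl, Serpinb3a, Klk1b5, Gpx2, Fam49a, Tmem88, Ces2g, Abp1, Klk1b3 and Gjb1. By day 10 they stood at 5.39 to 41.2 FPKM with the control vector and 4.76 to 44.7 with Cdk9-DN. Expressed as the share of the day 4 to day 10 rise that was reached at day 5, the median over all 32 protein-coding members was 0.054 with the control vector and 0.038 with Cdk9-DN, and the share was under 0.25 in 24 and 28 of them. Most of the rise thus fell between days 5 and 10 in these libraries, with exceptions. Fam116a, with its listed 0 at day 4, had reached 0.855 and 0.904 of its rise at day 5, and in control cells Cited1 had reached 0.899, Shisa3 0.583 and Nt5e 0.525 of theirs.

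Promoter sequence was not used by the rule. RefSeq promoter windows on GRCm38.p6 were found for 27 of the 32 protein-coding members, 2 of them under the later symbols Aoc1 (for Abp1) and Dennd6a, and not for Gsta4, Ly6d, Vax2, Fam49a and Tmem88. The 250 bases before the start were searched on both strands, using the first window of genes with several. A GC box, the letters GGGCGG and a site for Sp1-type factors, was in 13 of 27 members and in 32.7% of a comparison set of 32851 windows. That set left out a chromosome and counted every window of genes with several. For the TATA box letters TATAAA the count was 4 of 27 (Cited1, Serpinb3a, Fam116a and Elmo1) beside 12.4%, and for CCAAT it was 8 of 27 beside 33.8%. The interferon-stimulated response element, spelled as a pair of GAAA with a gap of 2 bases, was in Saa3 and Oas1a. It was in 2.98% of the windows of the comparison set. None of these motifs contains another, and a match describes the sequence only.

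Early and late members differed in these windows, a division made after their values were seen and not tested, and the early set rests on the single day 3 libraries. Of the 8 genes called higher from day 3 to day 5 with both vectors, 7 held a GC box, and their median GC content was 57.6%. Of the 13 genes under 1 FPKM at day 5, 10 had a window, 1 of these held a GC box and 5 held CCAAT, and the median GC content was 46.8%. These counts use first windows only, and a later window can differ. Gjb1, a late gene, has 4 windows. Its first has neither a GC box nor a TATA box at 40.4% GC, and its last holds both at 58.4% GC. The following 250-base windows end at the base before the start site and show an early pair, a late pair and the interferon-induced gene, with all matches to the 4 motifs on either strand in capitals. They lie at chr11:6658283-6658532 on the plus strand (Ramp3), chr9:88327359-88327608 plus (Nt5e), chr15:9435778-9436027 plus (Capsl), chr1:107052304-107052553 minus (Serpinb3a) and chr5:120907526-120907775 minus (Oas1a).
Ramp3: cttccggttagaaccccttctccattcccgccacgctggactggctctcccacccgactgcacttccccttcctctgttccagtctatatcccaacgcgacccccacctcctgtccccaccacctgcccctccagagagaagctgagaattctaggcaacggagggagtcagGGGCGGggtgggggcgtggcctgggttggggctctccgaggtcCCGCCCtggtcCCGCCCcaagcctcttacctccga
Nt5e: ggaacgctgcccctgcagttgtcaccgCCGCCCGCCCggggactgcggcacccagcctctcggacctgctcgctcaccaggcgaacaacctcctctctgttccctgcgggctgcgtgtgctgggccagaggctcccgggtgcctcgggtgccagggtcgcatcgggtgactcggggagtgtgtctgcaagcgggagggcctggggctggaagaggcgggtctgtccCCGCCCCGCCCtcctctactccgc
Capsl: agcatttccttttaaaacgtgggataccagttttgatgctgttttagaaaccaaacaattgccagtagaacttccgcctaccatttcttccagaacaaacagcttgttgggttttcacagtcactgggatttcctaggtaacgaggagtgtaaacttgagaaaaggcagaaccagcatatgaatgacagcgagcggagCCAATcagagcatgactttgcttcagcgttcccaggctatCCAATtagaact
Serpinb3a: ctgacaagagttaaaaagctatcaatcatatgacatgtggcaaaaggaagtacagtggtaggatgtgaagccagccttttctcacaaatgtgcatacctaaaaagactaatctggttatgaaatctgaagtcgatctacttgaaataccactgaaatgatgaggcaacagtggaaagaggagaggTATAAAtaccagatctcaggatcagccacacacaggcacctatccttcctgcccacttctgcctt
Oas1a: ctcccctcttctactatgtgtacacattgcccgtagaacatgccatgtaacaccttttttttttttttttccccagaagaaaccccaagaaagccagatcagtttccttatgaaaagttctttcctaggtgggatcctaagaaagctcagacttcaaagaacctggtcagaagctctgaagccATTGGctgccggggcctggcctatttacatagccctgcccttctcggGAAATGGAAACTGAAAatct
Ramp3 and Nt5e carry GC boxes near the start, Serpinb3a carries a TATA box, Capsl carries CCAAT, and the element in Oas1a lies at the very end of its window, as overlapping matches.

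By position, 4 of the 32 protein-coding members (Pcsk1n, Bex4, Cited1 and Gjb1) are on the X chromosome, beside 2.60% (56) of the 2151 protein-coding genes with at least 5 FPKM in the control libraries of day 10. In the coordinates of the deposited tables (mm9), Ramp3 spans chr11:6558524-6577478, Pcsk1n chrX:7496948-7501536, Cited1 chrX:99442720-99447520 and Shisa3 chr5:67999122-68014791. The median number of exons was 4.5 beside 6.

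Short RNA genes made up the other 33 members: 7 copies of U1, 7 of U2, 2 of U4, 1 each of U5 and U6, 2 Y RNAs, 2 copies of 5S ribosomal RNA and 11 others. GENCODE M21 held a transcript sequence for 22 of them. The 7 U2 members, all on chromosome 11, carry the letters GTAGTA that pair with the branch point, and 4 of them (Gm24950, Gm23971, Gm23849 and Rnu2-10) have 1 identical sequence of 191 bases and equal values in every library. Counted from the first base of that shared sequence, Gm26316 differs by C170T and Gm23444 by G109C. Reads of such copies cannot be assigned to 1 locus, so these values describe the family. Of the 4 U1 members with a sequence, 2 carry ACTTACCTG, which pairs with the 5′ splice site, and 2 do not. The shared U2 sequence (Rnu2-10, mm9 chr11:101519552-101519742), a U1 copy with the pairing letters (Gm23238, chr19:18807231-18807394) and one without (Gm23294, chr17:32937512-32937675) are shown, with the pairing letters in capitals.
U2, Rnu2-10: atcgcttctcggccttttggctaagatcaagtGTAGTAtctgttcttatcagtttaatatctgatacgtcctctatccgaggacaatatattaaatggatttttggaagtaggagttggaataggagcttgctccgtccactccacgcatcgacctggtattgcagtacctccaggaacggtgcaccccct
U1, Gm23238: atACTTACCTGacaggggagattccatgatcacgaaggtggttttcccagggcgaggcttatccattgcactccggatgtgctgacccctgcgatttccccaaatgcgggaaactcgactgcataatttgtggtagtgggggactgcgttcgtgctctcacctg
U1, Gm23294: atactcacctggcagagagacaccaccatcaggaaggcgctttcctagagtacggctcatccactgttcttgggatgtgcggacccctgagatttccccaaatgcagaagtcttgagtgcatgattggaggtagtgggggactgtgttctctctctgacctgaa
At day 10 with the control vector the means were 44.5 FPKM for the shared U2 sequence, 139 for Gm23238 and 5.71 for Gm23294, and with Cdk9-DN 19.97, 61.5 and 5.08 FPKM.

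The short RNA values followed single libraries more than groups with the control vector. Their summed FPKM was 172 and 1469 in the control libraries of day 4, 319 and 2378 at day 5, and 3113 and 1738 at day 10. With Cdk9-DN the sums were 65.6 and 177, 2675 and 2695, and 1603 and 1131 FPKM, and at day 3 they were 600 with the control vector and 302 with Cdk9-DN. The 7 U1 members together went from 33.1 and 73.9 FPKM at day 4 to 997 and 260 at day 10 with the control vector, and from 21.3 and 38.4 to 301 and 272 with Cdk9-DN. At day 5 the same sum was 47.2 and 610 with the control vector and 451 and 545 with Cdk9-DN. For U1 the replicates of the control vector thus lay far apart at days 5 and 10, and those of Cdk9-DN close together. Over all genes, the second control library of day 5 stood apart from the others. It had 83.8% of its FPKM in short RNA genes and 76.1% in its 10 highest genes. By the sum over the members, the first control library of day 5 stood apart, at 319 FPKM against 2378, 2675 and 2695.

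Single copies show the same spread. The U1 copy on chromosome 12 (mm9 chr12:55815205-55815368) was at 7.84 and 20.9 FPKM at day 4 and at 305 and 76.8 at day 10 with the control vector, and at 7.33 and 12.3 and then 92.7 and 89.3 with Cdk9-DN. A U4 copy (chr5:115940263-115940403) was at 5.97 and 4.82 and then 315 and 39.0 FPKM with the control vector, and went from 0 in both libraries to 82.8 and 49.5 with Cdk9-DN. The Y RNA on chromosome 6, a family that binds the Ro protein, was at 61.4 and 86.8 and then 290 and 226 FPKM, and with Cdk9-DN at 0 and 76.0 and then 178 and 139. In all of these the control libraries of day 10 were above those of day 4, but by very unequal amounts in U1 and U4.

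Of the short RNA genes with the largest rises or ratios, AC123619.1 was listed at 0 in all 6 libraries of days 3 and 4, and at 36.6, 23.3, 43.9 and 21.5 FPKM at day 10. U6 (chr15:77671087-77671186) was at 0 in all 4 libraries of day 4 and in the first control library of day 10, and at 41.5, 39.1 and 38.2 FPKM in the other libraries of day 10. It was also at 43.0 and 38.4 FPKM at day 3. CT010480.1, with the highest ratio of rises (2.76), was at 0 and 26.4 FPKM and then 24.2 and 13.8 with the control vector, and at 0 and 2.79 and then 70.4 and 70.6 with Cdk9-DN. In all, 7 of the 33 were listed at 0 in every library of day 4 that lists them.

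These values rest on few fragments. The FPKM and bounds of the 33 genes implied a median of 1.99 fragments in the control libraries of day 10, against 246 for the protein-coding members. CT030685.2, the member with the highest FPKM, had a control mean of 611 ± 235 FPKM (SD, n = 2) at day 10 from 1.29 implied fragments. Its libraries with the control vector gave 0 and 1152 FPKM at day 4, where both with Cdk9-DN were at 0, and 445 and 777 at day 10 against 367 and 0. The median absolute log2 difference between control replicates of day 5 was 3.62 for the short RNA members and 0.139 for the protein-coding ones. In control libraries it was 2.13 against 0.0883 at day 10 and 0.766 against 0.0463 at day 4. With Cdk9-DN it was 0.425, 0.238 and 0.702 for the short RNA members at days 4, 5 and 10. For the protein-coding members it was 0.0556, 0.0795 and 0.0812. By limma 0 of the 33 were called between vectors at day 5, with 0 at an unadjusted p under 0.05 and a median of 1.43 on the log2 scale. Over all short RNA genes it called 3 of 873. These counts turned on the control libraries of day 5: without the second, 20 of the 33 had an unadjusted p under 0.05 and the median was 3.27, and without the first the median was -0.35 and AC123619.1 was called higher with Cdk9-DN (adjusted p = 0.0166, up to 1 over the 14 alternatives). From day 3 to day 5, 0 of the 33 were called with either vector, beside 61 of 870 and 69 of 869 of all short RNA genes. At an unadjusted p under 0.05, 2 members were higher with the control vector and 8 with Cdk9-DN. Among all genes tested, of every class, 18.4% and 19% were higher, and the shares over short RNA genes alone were not counted. Without the first control library of day 5, 4 of the 33 were called (3 U1 copies and a U4 copy) and 19 had an unadjusted p under 0.05. AC123619.1 was called without the second (adjusted p = 0.00666), and with Cdk9-DN under a stricter filter (0.0472).

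**Figure D4:**
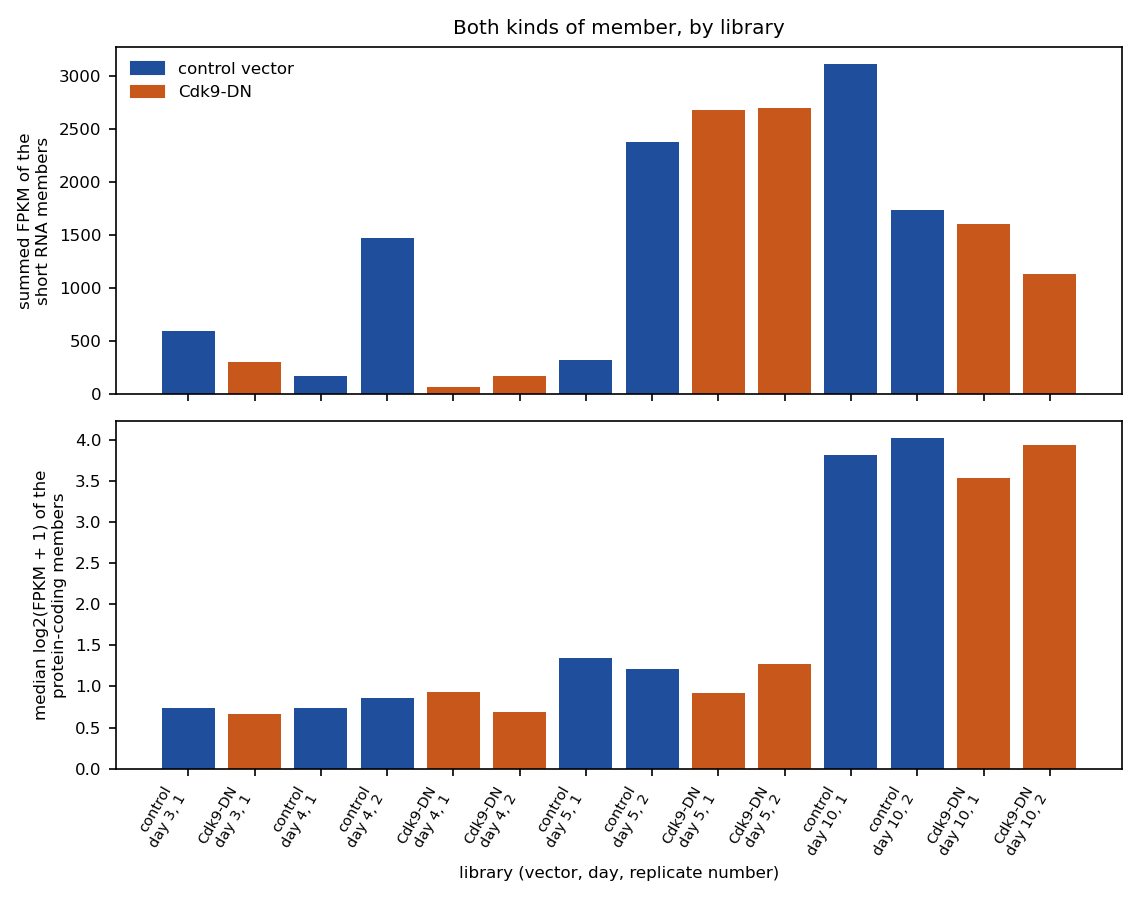
Summed FPKM of the 33 short RNA members (upper panel) and median log2(FPKM + 1) of the protein-coding members (lower panel) in each of the 14 libraries, by vector, day and replicate number. The short RNA sum jumps between control replicates, from 319 to 2378 FPKM at day 5, where the Cdk9-DN sums were 2675 and 2695. The protein-coding median lies between 0.67 and 1.35 until day 5 and between 3.54 and 4.03 at day 10.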

How the data were processed

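RNA of 14 libraries was measured. The authors deposited FPKM values with bounds, 1 table per library. Per the submitters' processing notes the tools were CASAVA 1.8.2, TopHat2 2.0.10 and Cufflinks 2.2.1, and the builds mm9 and NCBIM37. A gene that a library does not list has no value there, and exact 0 was kept. The bounds implied fragments per gene and depth, on the assumption that they cover counting error only.

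Values were analysed as log2(FPKM + 1) in limma 3.58.1 (R 4.3.3) with a cell means model, an intensity trend and Benjamini-Hochberg adjustment over all genes tested, two-sided, requiring 2 residual degrees of freedom, and a filter of 1 FPKM in 2 of the 12 libraries of days 4, 5 and 10. The vectors at day 5 were compared over those 12 libraries, and days 3 and 5 over all 14. The fits were tested on simulated data. GENCODE M21 supplied gene types, exons and short RNA sequences, and held 83.5% of the identifiers. Python 3.11.15 with pandas 2.3.3 prepared the tables.

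The members, lists and roles were chosen with earlier results of these data known. Named genes were those with the highest control level at day 10, the largest control rises or ratios, those called at day 5, the highest of each list and those nearest the limits. Other genes were named after their values were seen. Alternatives were other pseudocounts, filters, scalings, complete genes, a replicate block and leaving out single libraries.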

Additional observations from a re-analysis of the deposited data

Results flagged for a closer look

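Vax2 moved in opposite directions from day 3 to day 5, upward in both control libraries and downward in both Cdk9-DN libraries. With the control vector it was at 1.79 FPKM at day 3 and at 1.81 and 2.63 at day 5, a log2 change of 0.20, and with Cdk9-DN it went from 2.39 to 1.0005 and 1.711 FPKM, a change of -0.54. The difference between the 2 changes was not tested, and neither change passed the adjustment.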

How the results depend on the processing

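The number of members, 65, was 91 with a pseudocount of 0.1, 60 to 75 with another scaling, 45 when all libraries of the rule had to list the gene, and 45 to 90 without single libraries. Under all of these except full listing, 9 of the 32 protein-coding and 2 of the 33 short RNA members remained: Gsta4, Ramp3, Ly6d, Capsl, Shisa3, Serpinb3a, Gpx2, Fam49a and Tmem88 among the former. Without the first Cdk9-DN library of day 10, 14 protein-coding members were lost. Those that the second library does not list, such as Ctsf, Bex4 and Nt5e, had no value left and were lost by construction.

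For the vectors at day 5, the 10 calls became 22 without the filter, 3 with complete genes, 6 with the replicate block and 9 to 19 without single libraries. Ramp3 was called lower in the main analysis. The count of protein-coding members called was 0 without the filter, without the trend, with complete genes, with the replicate block and with the libraries of day 5 alone. The Ramp3 call was also lost when any 1 library of day 5 was left out.

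For day 5 against day 3, complete genes, of which fewer are tested, gave 547 calls with the control vector and 596 with Cdk9-DN, 3 members higher and 0 lower with each, and member medians of 0 and 0.057. Without single libraries the calls were 737 to 823 and 755 to 876, and members lower 0 to 1 with each vector. The count of members lower was 1 and 0 without the filter and, with Cdk9-DN, 3 after quantile normalization, which moved the median of all genes to -0.15 and -0.18 and the split of higher and lower calls to 255 and 795, and 261 and 935. The member median was 0.83 (pseudocount 0.1) and 0.57 (0.5) with the control vector, and 0.52 (0.1) with Cdk9-DN. The share of the rise at day 5 was 0.124 and 0.080 with a pseudocount of 0.1, 0.085 in control cells after quantile normalization, and 0.032 to 0.099 and 0.026 to 0.067 without single libraries. Where no construction shows it, the cause was not tested.

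Replicate numbers were not taken as pairs in the main fits. Over all genes, same-numbered deviations of the 2 vectors correlated at 0.015, 0.055 and -0.021 at days 4, 5 and 10. Over protein-coding genes they correlated at -0.010, -0.008 and -0.364, and the cause of the last was not tested. No paired analysis was possible for day 5 against day 3 because the day 3 labels carry no replicate number. The short RNA members had a median of 1.99 implied fragments in the control libraries of day 10, over a range of 0.04 to 32.9. The protein-coding members had a median of 246 in the same libraries, and the cause of the difference was not tested.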
